A study of Mus musculus with 6 samples.

Results

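The mitochondrial ribosomal protein genes were taken as the protein-coding rows of the count table whose gene name begins with Mrpl or Mrps followed by a digit. This rule found 78 of the 53084 genes listed, 49 named Mrpl and 29 named Mrps, and it used no measured value. RNA was sequenced from the muscle of 3 Tarsl2+/+ (WT) and 3 Tarsl2-/- (KO) mice, which were male, of the C57BL/6 strain and 6 weeks old, were fed standard chow, and are separate animals per the labels. Tarsl2 encodes a threonyl-tRNA synthetase-like protein of the cytoplasm and nucleus, and the KO allele lacks a fragment that holds exon 3 in every tissue. The WT mice carry the numbers 583, 584 and 595 and the KO mice 588, 591 and 589, and values for single mice are given in this order throughout. The title of mouse 589 carries a further letter that the labels do not explain.

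Mitochondria keep a small genome of their own, and its mRNAs, all of which encode subunits of the respiratory chain or of the ATP synthase, are translated by a dedicated ribosome inside the organelle. Its RNAs come from mitochondrial DNA, whereas every protein of its large subunit (Mrpl genes) and small subunit (Mrps genes) is encoded in the nucleus, made in the cytosol and imported. Some of these proteins have a counterpart in the bacterial ribosome and others are particular to mitochondria. Skeletal muscle relies on this ribosome for its oxidative capacity, and inherited defects in several of its proteins impair heart, muscle or brain.

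The libraries held 16176591 to 20123767 counts. Tarsl2 had 456, 605 and 464 counts in WT and 40, 37 and 30 counts in KO, a log2 fold change of -3.82 (SE 0.156, edgeR adjusted p = 6.45e-07), which matched the genotype labels. Defining muscle fibre genes were abundant in every library, whereas no gene of a retina marker list exceeded 7 counts in any library, although the extraction text of the labels names retinas. Levels are given as counts per 1000000 counts of the library with TMM scaling (CPM). In summed CPM, muscle fibre markers ranged from 48020 to 51510 in WT and from 52230 to 61340 in KO, without overlap. Red cell markers ranged from 4747 to 10390 in WT and from 4165 to 4534 in KO, leukocyte markers from 940.2 to 1130 and from 488.1 to 635.9, slow fibre markers from 944.2 to 1635 and from 1265 to 1976, and adipocyte markers from 257.9 to 463.9 and from 259.5 to 759.9. Fast fibre markers ranged from 97760 to 106900 in WT and from 101200 to 113200 in KO, with overlap. Red cell and leukocyte sums did not overlap between the genotypes. The muscle fibre and fast fibre lists share Myh1, Myh4 and Tnnt3. Higher in KO by the test were 2 of 6 muscle fibre and 2 of 8 tested fast fibre markers. Lower were 2 of 6 leukocyte markers, and no red cell, slow fibre or adipocyte marker passed. Their part in the results was not tested, and in bulk tissue fewer cells of a type and less RNA per cell cannot be told apart. With TMM scaling, mouse 595 was the highest of all 6 mice for 33 of the 77 members with a usable count. It was the highest for 34 with RLE scaling and for 34 with upper quartile scaling. With library totals in place of these scalings, mouse 595 was the highest for 23 members and the lowest for 20. Mouse 591 was then the highest for 23 as well.

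The mRNAs of the mitoribosome were present at very unequal levels. Per kilobase of each gene's principal transcript, the mean over the 6 mice ran from 4.31 to 838 CPM per kb with a median of 43.6, a 194-fold range, and 36 members lay between 0.5 and 2 times the median. The highest levels per kilobase were those of Mrps21 (838 CPM per kb), Mrpl42 (634.6), Mrpl33 (441.9), Mrpl14 (381.7) and Mrpl30 (313), and the lowest those of Mrps30 (8.20), Mrps25 (7.53), Mrps2 (7.43), Mrps5 (6.28) and Mrpl19 (4.31). Mrps21, Mrpl33, Mrpl14, Mrpl30, Mrps2, Mrps5 and Mrpl19 are counterparts of bacterial ribosomal proteins, whereas Mrpl42, Mrps25 and Mrps30 are particular to mitochondria. With the gene length listed in the table in place of the transcript length, the order of the members kept a Spearman correlation of 0.889 across genes with the first. Mrps21 and Mrpl19 stayed at the ends of that order, whereas Mrpl33 moved from rank 3 to rank 42, since 7326 bases are listed for the gene and 478 for its principal transcript.

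**Figure D1:**
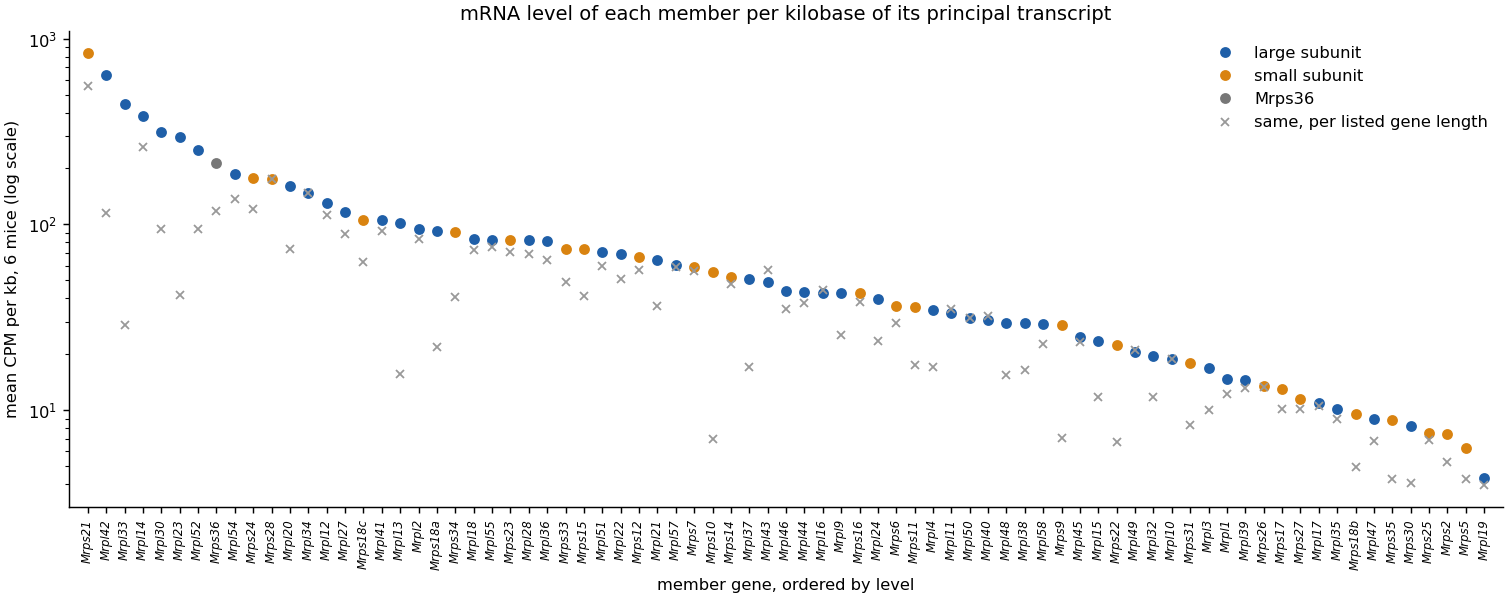
Mean level of each of the 77 members counted in these libraries, in CPM per kilobase of the principal transcript on a log axis, with members ordered by level and coloured by ribosomal subunit. Grey crosses give the same quantity per listed gene length. Levels fall smoothly from 838 (Mrps21) to 4.31 (Mrpl19) CPM per kb, with both subunits spread along the whole range.

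Mrpl53 (chr6:83109040-83109939, plus strand) was listed at 0 counts in all 6 libraries. A second protein-coding gene, Gm42688, shares 87.975% of the exon bases of Mrpl53 on the same strand and had 5, 1 and 5 counts in WT and 3, 3 and 6 counts in KO, so a count of 0 here cannot be read as absence of the mRNA. The other 77 members had 160 to 10027 counts in each library and were tested. Of the 78 members, 8 share exon bases with another gene on the same strand, more than 10% of them in 5, namely Mrpl53, Mrps34, Mrps18c, Mrps6 and Mrps24. For these 5, reads in the shared stretch could have been assigned to either gene or to neither, and which was done is not given.

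Promoter sequence was available for 69 of the 78 members, as windows from 250 bases before to 50 after each RefSeq start on GRCm38.p6. The 3 nuclear factors searched, all known to act on genes for mitochondria, were represented by a short consensus read on both strands, NRF1 by GCGCATGC, the ETS factor GABP by CCGGAAGT and YY1 by ATGGCGGC. The NRF1 letters were found in 8 members, 11.59% against 3.05% of all genes with such a window and 3.94% of protein-coding genes. The ETS letters were found in 12 members, 17.39% against 4.31% of all genes and 5.69% of protein-coding genes. The YY1 letters were found in 12, 17.39% against 2.6% and 3.5%. The YY1 letters also read as a start codon followed by alanine codons, and an NRF1 match can overlap its own reverse complement. At least 1 of the motifs was found in 27 members, 39.1% against 9.22% of all genes and 12.1% of protein-coding genes. The 4 windows that lie before a RefSeq start and outside annotated exons are printed here, with the match in capitals. They show what these letters look like in both subunits.
Mrpl10 (NRF1, chr11:97041436-97041467, plus strand): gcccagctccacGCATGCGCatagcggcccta
Mrpl22 (NRF1, chr11:58171619-58171650, plus strand): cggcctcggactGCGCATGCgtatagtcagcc
Mrpl48 (ETS, chr7:100583146-100583177, minus strand): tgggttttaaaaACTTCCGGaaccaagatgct
Mrps27 (ETS, chr13:99344725-99344756, plus strand): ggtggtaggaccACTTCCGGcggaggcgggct
The matches of Mrpl10, Mrpl22, Mrpl48 and Mrps27 begin 134, 33, 35 and 49 bases before a RefSeq start. All but that of Mrpl22 read as the reverse complement. The window of Mrpl48 lies inside the annotated gene (chr7:100545751-100608301), before an internal start and not at the 5' end of the gene. A match is a description of the letters and not evidence of a bound factor.

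Deletion of Tarsl2 was compared with WT to ask whether these mRNAs differed between the genotypes. None of the 77 tested members passed the test in either direction (edgeR quasi-likelihood test, Benjamini-Hochberg adjusted p over 15075 genes under 0.05), against 342 of all tested genes, or 2.27%. At an unadjusted p under 0.05, 8 members were higher in KO (10.4%, against 9.57% of all genes) and 7 were lower (9.09%, against 10.2%). DESeq2 called 2 members higher, Mrpl37 and Mrpl2, and none lower, against a background of 4.43% in either direction. In 16 members every KO mouse lay above every WT mouse (20.8%, against 12.6% of all genes), in 9 every KO mouse lay below (11.7%, against 12.0%), and in 52 the genotypes overlapped. With library totals in place of TMM scaling, 9 of the 77 were apart on the higher side (11.7%, against 9.94% of all genes). On the lower side 15 of the 77 were then apart, against 13.5% of all genes. Which side held more members thus depended on the scaling.

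The differences were small and well bounded. The log2 fold changes of the members, KO over WT, ran from -0.42 to 0.36 with a median of 0.017, against 0.0025 for all genes, and 41 were above 0 and 36 below. Their middle 50% spanned -0.10 to 0.12, against -0.18 to 0.17 for all genes. The 95% interval of the fold change stayed within 1.5-fold in either direction for 76 of the 77 members, all but Mrps6, against 58.5% of all genes. The SE of the log2 fold changes was 0.0771 to 0.1871 with a median of 0.0892, against 0.14 over all genes, and the median coefficient of variation of the members among mice was 6.92% in WT and 4.49% in KO. Every tested member had at least 160 counts in each library, whereas all tested genes include some with fewer. These comparisons with all genes were not matched for level. Summed over all members, the mRNAs made up 7174 ± 399 CPM in WT and 7090 ± 126 CPM in KO (SD, n = 3 each).

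**Figure D2:**
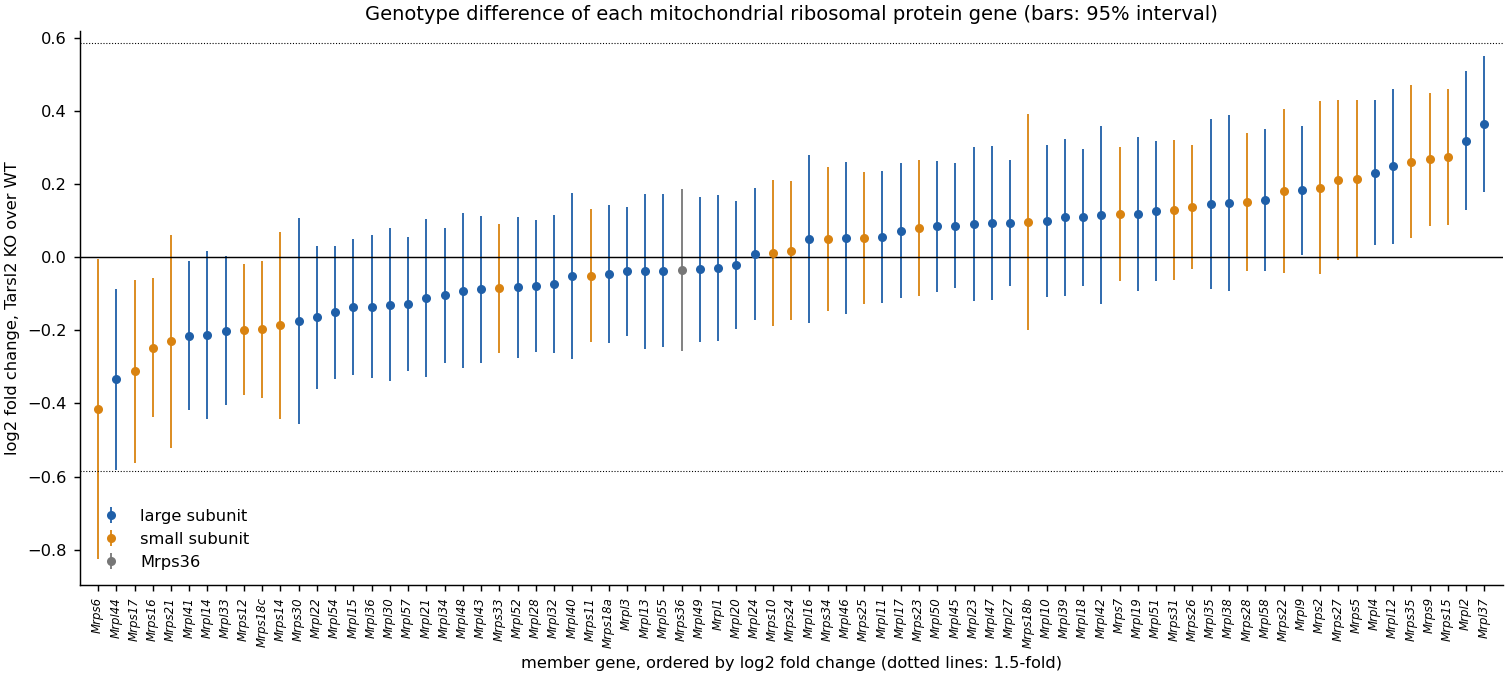
Log2 fold change, KO over WT, of the 77 tested members with 95% intervals, ordered by size and coloured by subunit, with dotted lines at 1.5-fold. The points run without a break from -0.42 (Mrps6) to 0.36 (Mrpl37), and the interval of Mrps6 is the one that crosses a dotted line.

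By subunit, the median log2 fold change was -0.025 for the 50 tested proteins of the large subunit, of which 24 were above 0, and 0.066 for the 26 of the small subunit, of which 17 were above 0. The large subunit count includes Mrps30 and Mrps18a, whose proteins sit in the large subunit despite their names. The sign of the large subunit median turned when mouse 584 (0.0074), mouse 595 (0.025) or mouse 589 (0.014) was left out. By origin, the 28 large subunit proteins with a bacterial counterpart had a median of -0.0067 and the 20 particular to mitochondria 0.0096, and the 16 small subunit proteins with a bacterial counterpart had a median of -0.019 and the 9 particular to mitochondria 0.13. Of those 9 small subunit proteins 8 were above 0 and 3, Mrps26, Mrps31 and Mrps35, had KO mice above all WT mice, against 12.6% of all tested genes. They were also transcripts of low level, with a median of 18.0 CPM per kb, against 53.8 for the 16 with a bacterial counterpart.

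Among the large subunit proteins with a bacterial counterpart, Mrpl2, Mrpl4, Mrpl9 and Mrpl12 had the smallest p-values on the higher side. Mrpl2, which in bacteria lies close to the peptidyl transferase centre, was at 83.1, 94.0 and 82.2 CPM in WT and at 103, 110.5 and 109.7 CPM in KO. The genotypes did not overlap, and the log2 fold change was 0.32 (SE 0.0870, edgeR adjusted p = 0.0798). With DESeq2 its adjusted p was 0.0348, and the edgeR adjusted p was 0.0424 with mouse 584 left out and 0.0493 without a filter on low counts, against 0.114 to 0.256 with any other mouse left out and 0.0735 to 0.12 under the other scalings, filters and limma-voom. Mrpl12, the stalk protein that contacts translation factors, was at 145, 168 and 160 CPM in WT and at 175, 205 and 182 CPM in KO. Mouse 591 was the highest and mouse 583 the lowest, and the log2 fold change was 0.25 (SE 0.0965, edgeR adjusted p = 0.183). Mrpl4, whose counterpart lines the exit tunnel of the bacterial ribosome, was at 38.2, 45.5 and 39.3 CPM in WT and at 47.4, 48.6 and 48.3 CPM in KO. The KO mice lay close together just above WT mouse 584, and the log2 fold change was 0.23 (SE 0.0904, edgeR adjusted p = 0.188). Mrpl9, another rRNA-binding protein, was at 64.8, 67.5 and 61.8 CPM in WT and at 72.6, 76.2 and 71.5 CPM in KO. Its genotypes did not overlap either, and its log2 fold change was 0.18 (SE 0.0801, edgeR adjusted p = 0.235).

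On the lower side of the same class stood Mrpl33 and Mrpl14. Mrpl33, one of the smallest proteins of the ribosome, was at 227, 204 and 248 CPM in WT and at 194, 195 and 200 CPM in KO. The KO mice were nearly equal and lay just below WT mouse 584, with a log2 fold change of -0.20 (SE 0.0933, edgeR adjusted p = 0.262), or -0.13 without mouse 595. Mrpl14, which lies at the face that meets the small subunit, was at 259, 232 and 303 CPM in WT and at 228, 227 and 229 CPM in KO. The difference rested largely on mouse 595, the genotypes did not overlap, and the log2 fold change was -0.21 (SE 0.1045, edgeR adjusted p = 0.289), with -0.11 when mouse 595 was left out. Mrpl30 was at 306, 293 and 352 CPM in WT and at 298, 281 and 290.0 CPM in KO, and Mrpl19 at 20.6, 20.9 and 20.6 CPM and at 22.9, 20.5 and 24.1 CPM. Both overlapped between the genotypes, with log2 fold changes of -0.13 (SE 0.0952) and 0.12 (SE 0.0959). Mrpl30 was at -0.050 without mouse 595, and Mrpl19 at 0.068 without mouse 589 and at 0.18 without mouse 591.

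Among the large subunit proteins particular to mitochondria, Mrpl37 had the smallest p-value of all members and the largest log2 fold change on the higher side. Mrpl37 (chr4:107055874-107066868, minus strand) was at 65.4, 71.0 and 62.4 CPM in WT and at 88.5, 82.2 and 84.9 CPM in KO. All KO mice were clearly above all WT mice, and the log2 fold change was 0.36 (SE 0.0845, edgeR adjusted p = 0.0517), just short of the threshold. It passed with DESeq2 (adjusted p = 0.0114), with limma-voom (adjusted p = 0.0498), under each of 3 other filters on genes (edgeR adjusted p of 0.0159 to 0.0474) and with mouse 584 left out (edgeR adjusted p = 0.0326). It did not pass with RLE, upper quartile or library total scaling (edgeR adjusted p of 0.0519 to 0.0713) or with any other mouse left out (0.104 to 0.169), and its log2 fold change lay between 0.32 and 0.42 whichever mouse was left out. Mrpl44 (chr1:79776018-79781445, plus strand), which has an RNase III-like fold and is mutated in an inherited cardiomyopathy, was at 67.7, 61.3 and 77.5 CPM in WT and at 61.2, 54.3 and 48.3 CPM in KO. The genotypes touched without overlap at WT mouse 584 and KO mouse 588, and the log2 fold change was -0.33 (SE 0.1122, edgeR adjusted p = 0.132). Mrpl41 was at 92.5, 77.7 and 92.7 CPM in WT and at 78.3, 73.0 and 75.2 CPM in KO. WT mouse 584 lay within the KO range, and the log2 fold change was -0.21 (SE 0.0925, edgeR adjusted p = 0.227). Mrpl42 was at 361, 394 and 463 CPM in WT and at 478, 410.1 and 430 CPM in KO, with overlap and a log2 fold change of 0.11 (SE 0.1106) that ran from 0.033 without mouse 583 to 0.22 without mouse 595.

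**Figure D3:**
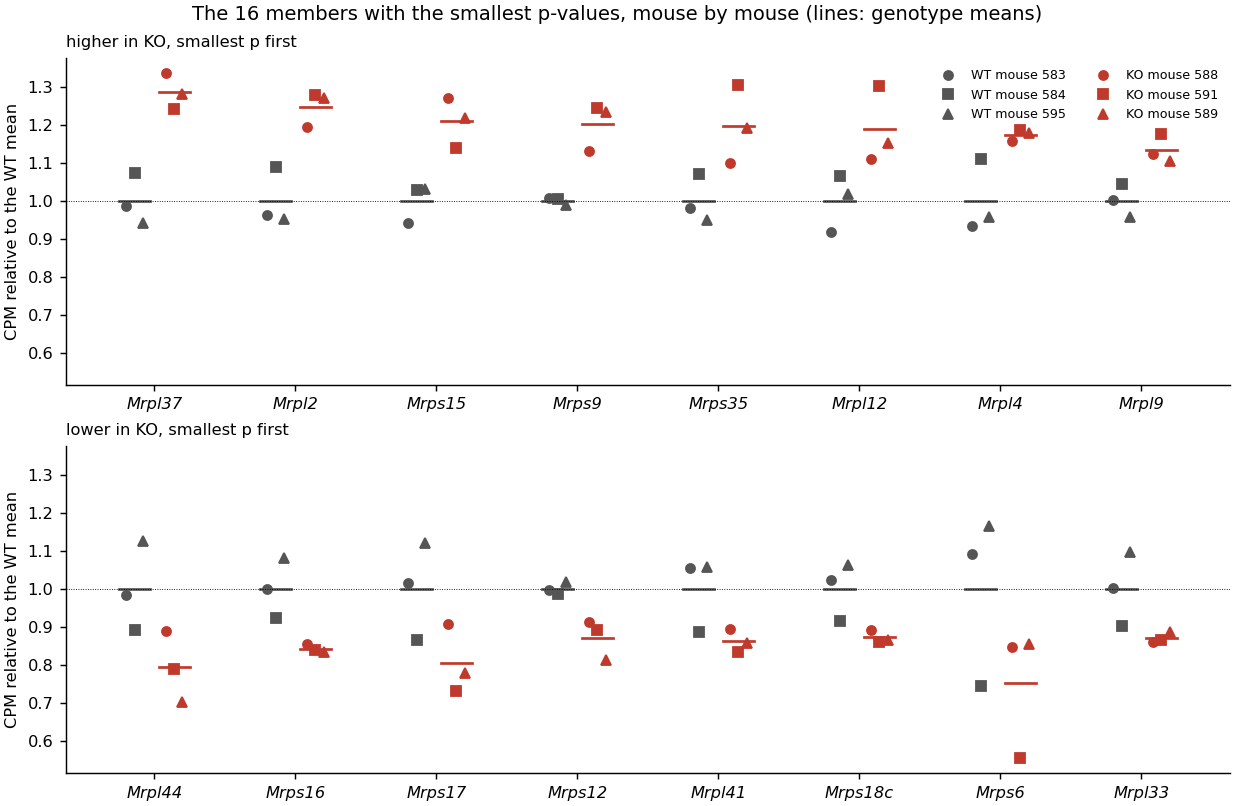
CPM of each mouse divided by the WT mean for the 8 members higher in KO and the 8 lower in KO with the smallest p-values, with short lines at genotype means and one symbol per mouse. In the upper row the log2 fold changes are 0.18 to 0.36 and no genotypes overlap, whereas in the lower row Mrps17, Mrpl41 and Mrps6 overlap and mouse 595 is the highest WT mouse of all 8.

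The small subunit proteins with a bacterial counterpart held members on both sides. Mrps15, an early rRNA-binding protein in bacteria, was at 59.1, 64.5 and 64.7 CPM in WT and at 79.8, 71.4 and 76.3 CPM in KO. Mrps9, a protein of the head of the subunit, was at 37.2, 37.1 and 36.6 CPM in WT and at 41.9, 46.0 and 45.7 CPM in KO. Neither overlapped, and the log2 fold changes were 0.27 (SE 0.0842, edgeR adjusted p = 0.109) and 0.27 (SE 0.0824, edgeR adjusted p = 0.110). Mrps5 was at 25.2, 28.9 and 24.2 CPM in WT and at 28.7, 31.9 and 30.1 CPM in KO, and Mrps2 at 13.6, 15.4 and 14.3 CPM and at 15.4, 15.9 and 18.2 CPM. Their log2 fold changes were 0.21 (SE 0.0978) and 0.19 (SE 0.1082), with edgeR adjusted p of 0.255 and 0.363, and that of Mrps2 was 0.12 without mouse 589.

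Lower in KO in that class were Mrps16, Mrps17, Mrps12, Mrps18c and Mrps6. Mrps16, mutated in an inherited defect of mitochondrial translation, was at 119, 110.0 and 129 CPM in WT and at 102, 99.97 and 99.4 CPM in KO. Its KO mice lay within 3 CPM of one another and below all WT mice, with a log2 fold change of -0.25 (SE 0.0865, edgeR adjusted p = 0.145). Mrps17 was at 74.0, 63.1 and 81.7 CPM in WT and at 66.1, 53.3 and 56.8 CPM in KO, and mouse 588 exceeded mouse 584 (log2 fold change -0.31, SE 0.1138, edgeR adjusted p = 0.160). Mrps12, the counterpart of a protein at the bacterial decoding centre, was at 62.7, 62.1 and 64.2 CPM in WT and at 57.4, 56.1 and 51.1 CPM in KO. These did not overlap (log2 fold change -0.20, SE 0.0820, edgeR adjusted p = 0.208). Mrps6 was the most variable of the named members, at 38.5, 26.2 and 41.1 CPM in WT and at 29.9, 19.5 and 30.1 CPM in KO. Within each genotype 1 mouse, 584 in WT and 591 in KO, lay far below the other two, so that its log2 fold change of -0.42 had an SE of 0.1871 and an edgeR adjusted p of 0.248, and was -0.23 without mouse 591. Mrps21, the most abundant member per kilobase, was at 433, 365 and 526 CPM in WT and at 410.1, 336 and 383 CPM in KO, with overlap and a log2 fold change of -0.23 (SE 0.1326, edgeR adjusted p = 0.369). Without mouse 595 that value was -0.085, without mouse 584 -0.35.

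Of the small subunit proteins particular to mitochondria, Mrps35 was at 33.0, 36.0 and 31.9 CPM in WT and at 37.0, 43.9 and 40.04 CPM in KO. The genotypes did not overlap, though mice 584 and 588 were near each other, and the log2 fold change was 0.26 (SE 0.0951, edgeR adjusted p = 0.160). Mrps25 was at 45.0, 45.2 and 44.5 CPM in WT and at 47.2, 43.6 and 49.0 CPM in KO, with overlap and a log2 fold change of 0.053 (SE 0.0825), which was 0.018 without mouse 589 and 0.097 without mouse 591. For Mrps25, 69.799% of the exon bases are shared with genes of the opposite strand, and the strand setting of the counting is not given in the sources used here. The same limit holds for the other members with such shared bases, 28 in all. After Mrps25 the largest shares are those of Mrps34 (63.421%), Mrpl19 (36.0%), Mrpl43 (33.355%) and Mrps18b (30.541%).

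Some members differ from the rest in place or role. Mrps18a, Mrps18b and Mrps18c are 3 nuclear copies related to a single bacterial protein, and each is found at a different position of the mitochondrial ribosome. Mrps18a was at 77.6, 80.5 and 89.5 CPM in WT and at 81.1, 76.7 and 82.2 CPM in KO, Mrps18b at 9.35, 11.1 and 9.45 CPM and at 9.09, 11.4 and 11.48 CPM, and Mrps18c at 73.8, 66.0 and 76.8 CPM and at 64.4, 62.1 and 62.4 CPM. Mrps18b thus had the lowest CPM of the 77 tested members, and Mrps18c was the one of the 3 whose genotypes did not overlap. Their log2 fold changes were -0.046 (SE 0.0861), 0.097 (SE 0.1345) and -0.20 (SE 0.0853, edgeR adjusted p = 0.228). Without mouse 595 that of Mrps18a was 0.014, and that of Mrps18b ran from 0.042 without mouse 591 to 0.20 without mouse 588. Mrps30 was at 29.4, 26.4 and 30.7 CPM in WT and at 29.3, 20.6 and 27.0 CPM in KO, with a log2 fold change of -0.17 (SE 0.1285, edgeR adjusted p = 0.492) that was -0.038 without mouse 591 and -0.28 without mouse 588. Mrps36, a subunit of the 2-oxoglutarate dehydrogenase complex that was once assigned to the ribosome, was counted with neither subunit. It was at 145, 138 and 173 CPM in WT and at 157, 145 and 143 CPM in KO, with overlap and a log2 fold change of -0.036 (SE 0.1010, edgeR adjusted p = 0.889), or 0.064 without mouse 595.

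The members that were lower in KO tended to have short mRNAs. In the 20 shortest (418 to 923 nt) the median log2 fold change was -0.12, 15 of 20 were below 0, 5 had KO mice below all WT mice (against 12.0% of all genes), and 4 were lower (against 10.2%) and 0 higher (against 9.57%) at an unadjusted p under 0.05. In the next 3 length groups, of 19 members each, the medians were 0.017 (937 to 1316 nt), 0.11 (1332 to 2596 nt) and 0.053 (2877 to 7300 nt). Across the 77 members the Spearman correlation of log2 fold change with length was 0.284, and across 13066 tested genes with a principal transcript it was 0.132; genes of one set of libraries are not independent replicates, so no p is given. With all these genes divided by length into 8 bins, the median log2 fold change ran from -0.069 in the shortest bin, which holds 41 of the members, to 0.046 in the longest. One WT mouse moved with this pattern: the 20 shortest members lay 0.14 above its mean over mice (log2) in mouse 595, against 0.038 in mouse 583, -0.035 in mouse 584 and 0.0065, -0.074 and -0.067 in the KO mice. Without mouse 595 the correlation across members was 0.198, and it was 0.245 to 0.330 without any other mouse. What transcript length contributed to the genotype differences was not tested.

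**Figure D4:**
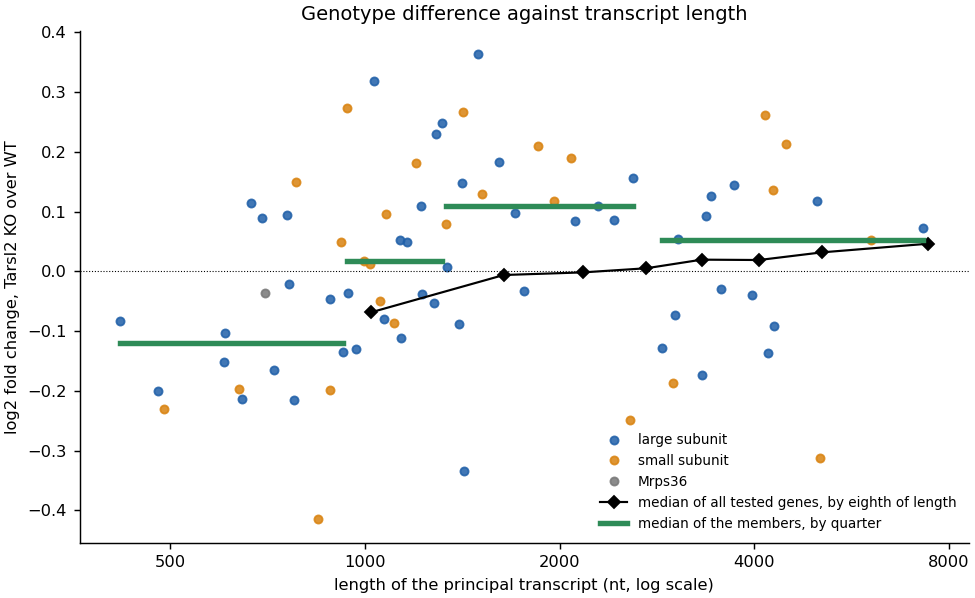
Log2 fold change, KO over WT, of each tested member against the length of its principal transcript on a log axis, with green bars at the medians of the 4 length groups of members and black diamonds at the medians of the 8 length bins of all tested genes. The 20 shortest members have their median at -0.12 and the third group at 0.11, and the medians over all genes run from -0.069 to 0.046.

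The other genes of mitochondrial translation were read in the same way. Of 5 mitoribosome proteins with other gene names, none passed. Ptcd3 (small subunit, RNA-binding repeats) was at 28.9 ± 4.27 CPM in WT and 35.6 ± 2.68 CPM in KO, Dap3 (a GTP-binding small subunit protein) at 46.4 ± 2.95 and 53.6 ± 0.887 CPM, and Chchd1 (small subunit) at 681 ± 96.2 and 570.4 ± 70.3 CPM (SD, n = 3). Of these, Dap3 alone had KO mice above all WT mice (log2 fold change 0.21, SE 0.0833, edgeR adjusted p = 0.194). Of 28 assembly and rRNA modification factors none passed, and the median log2 fold change was 0.053. In 3 every KO mouse lay above every WT mouse (10.7%, against 12.6% of all genes), and in 2 below (7.14%, against 12.0%). Mrm3, an rRNA methyltransferase, was at 9.87 ± 1.32 CPM in WT and 14.1 ± 1.08 CPM in KO (log2 fold change 0.51, SE 0.1289, edgeR adjusted p = 0.0657), and Ybey, an endonuclease needed for the small subunit, at 16.9 ± 2.23 and 12.5 ± 1.85 CPM (log2 fold change -0.44, SE 0.1398, edgeR adjusted p = 0.116). Afg3l2, a subunit of the protease that processes Mrpl32, had a log2 fold change of 0.41 (SE 0.1341, edgeR adjusted p = 0.128) with overlapping genotypes.

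Of 18 translation factors 17 were tested, all but Pdf, and 1 passed. Slirp, which with Lrpprc stabilises mitochondrial mRNAs, was at 27.7, 27.9 and 32.7 CPM in WT and at 19.1, 20.6 and 19.7 CPM in KO. All KO mice were well below all WT mice, and it fell by 0.57 on the log2 scale (SE 0.0992, edgeR adjusted p = 0.0174). It passed in 2 of the 6 fits that each left out 1 mouse. Its partner Lrpprc had a log2 fold change of 0.27 (edgeR adjusted p = 0.161). Oxa1l, which inserts the newly made proteins into the inner membrane, was at 45.4 ± 3.19 CPM in WT and 57.8 ± 2.18 CPM in KO (log2 fold change 0.35, SE 0.0859, edgeR adjusted p = 0.0615), Mtif3, an initiation factor, at 10.02 ± 0.536 and 13.1 ± 1.48 CPM (0.38, SE 0.1221, edgeR adjusted p = 0.121) and Guf1, an elongation factor, at 22.8 ± 1.49 and 27.2 ± 1.59 CPM (0.26, SE 0.0945, edgeR adjusted p = 0.161). In these 3 genes, named for their small p-values, every KO mouse exceeded every WT mouse, without passing the test. Of the 17, 5 were apart on the higher side (29.4%, against 12.6% of all genes) and 1 on the lower (5.88%, against 12.0%).

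Of 12 genes for transcription and replication of mitochondrial DNA none passed. Polrmt, the mitochondrial RNA polymerase, was at 6.66 ± 0.692 CPM in WT and 9.01 ± 0.547 CPM in KO (log2 fold change 0.44, SE 0.1353, edgeR adjusted p = 0.111), Tfb2m, its initiation factor, at 27.7 ± 1.41 and 33.0 ± 2.75 CPM (0.26, SE 0.0946, edgeR adjusted p = 0.165), and Ssbp1, which coats single-stranded mitochondrial DNA, at 64.0 ± 3.47 and 55.8 ± 5.15 CPM (-0.20, SE 0.0925, edgeR adjusted p = 0.267). The 13 mRNAs of mitochondrial DNA, which this ribosome translates, had 12 of 13 log2 fold changes above 0, with the median at 0.27 and none past the threshold. In 1 of the 13 every KO mouse lay above every WT mouse (7.69%, against 12.6% of all genes), and in 0 below. The 13 were counted in the same libraries and are not independent replicates. The nearest was mt-Atp6, at 255, 332 and 259 CPM in WT and 401, 357 and 443 CPM in KO, with no overlap (log2 fold change 0.50, SE 0.1230, edgeR adjusted p = 0.0592). For mt-Nd4l the log2 fold change was 0.70 (SE 0.2269, edgeR adjusted p = 0.126) and for mt-Co1 0.35 (SE 0.1473, edgeR adjusted p = 0.210), and both overlapped. mt-Co1 was at 15310, 21340 and 17600 CPM in WT and at 23630, 20280 and 25460 CPM in KO. WT mouse 583 was the lowest of all mice, and WT mouse 584 exceeded KO mouse 591. The same held for mt-Nd1, at 5718, 8561 and 6917 CPM in WT and 9095, 6642 and 9239 CPM in KO. The log2 fold change of mt-Nd1 was 0.24, and from 0.10 to 0.40 with 1 mouse left out.

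Of 10 regulators of nuclear genes for mitochondria, 1 passed. Ppargc1b, a coactivator of genes for mitochondria, was at 2.81, 2.66 and 2.21 CPM in WT and at 3.79, 5.78 and 6.86 CPM in KO. It rose by 1.10 on the log2 scale (SE 0.2360, edgeR adjusted p = 0.0370), with mouse 588 between WT and the other KO mice, and passed in 1 of the 6 fits without a mouse. Its relative Ppargc1a was at 7.02 ± 1.10 CPM in WT and 10.5 ± 0.771 CPM in KO (log2 fold change 0.58, SE 0.1435, edgeR adjusted p = 0.0607), Esrra, the nuclear receptor these coactivate, at 95.3 ± 5.48 and 122 ± 10.02 CPM (0.35, SE 0.0914, edgeR adjusted p = 0.0678) and Gabpa, the DNA-binding subunit of GABP, at 24.0 ± 1.86 and 29.8 ± 1.34 CPM (0.31, SE 0.0939, edgeR adjusted p = 0.105). Of the regulators 9 were above 0, and the median log2 fold change of all 10 was 0.22, against 0.017 for the members. The regulator below 0 was Yy1, with a log2 fold change of -0.23 (SE 0.1144, edgeR adjusted p = 0.307). Nrf1 had a log2 fold change of 0.13 (SE 0.1187, edgeR adjusted p = 0.579). Both genes overlapped between the genotypes. Split by the promoter letters, members with and without an NRF1 match had medians of 0.084 (n = 8) and -0.0067 (n = 60), those with and without an ETS match 0.027 (n = 12) and 0.0098 (n = 56), and those with and without a YY1 match 0.094 (n = 11) and -0.022 (n = 57). The ranges of the members with a match, from -0.20 to 0.18 for NRF1, from -0.20 to 0.21 for ETS and from -0.17 to 0.36 for YY1, lay on both sides of 0.

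**Figure D5:**
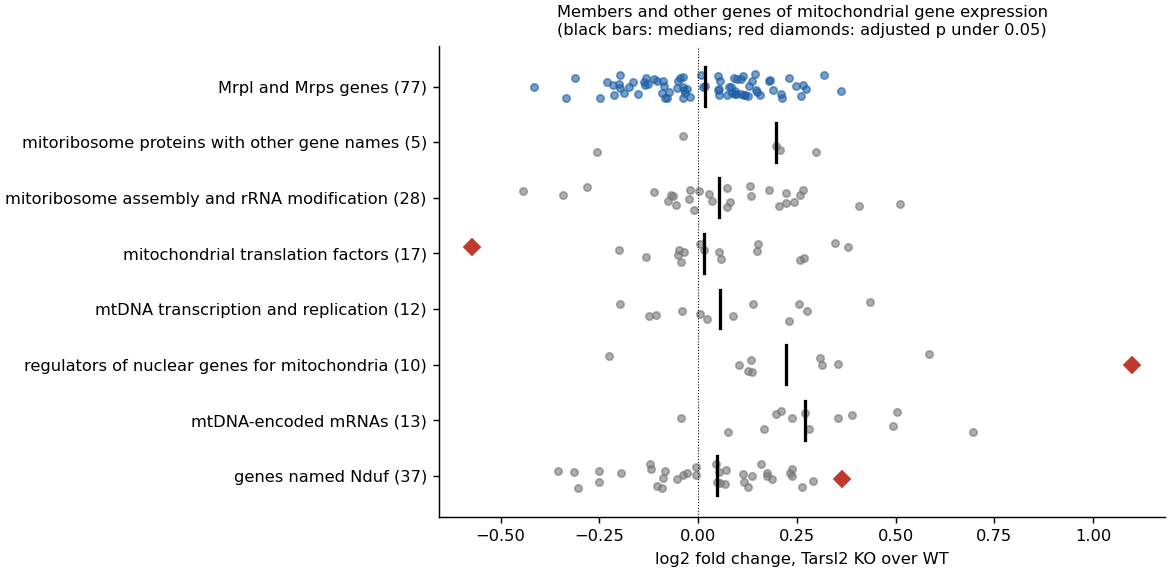
Log2 fold change, KO over WT, of the members and of the genes of 7 related lists, one point per tested gene, with black bars at the medians and red diamonds at genes with an edgeR adjusted p under 0.05. The members lie around 0.017 with no call, whereas the regulators and the mRNAs of mitochondrial DNA have medians of 0.22 and 0.27 and the calls are Slirp (-0.57), Ppargc1b (1.10) and Ndufa9 (0.36). Of the 13 mRNAs of mitochondrial DNA, 1 had KO mice above all WT mice.

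The ribosome of the cytosol and the respiratory chain were set beside the members. Of 84 cytosolic ribosomal protein genes 83 were tested and none passed, and 34 were above 0 (median log2 fold change -0.049). In 4 every KO mouse lay above every WT mouse (4.82%, against 12.6% of all genes), and in 2 below (2.41%, against 12.0%). The smallest p was that of Rpl17, at 1040, 965 and 1625 CPM in WT and 341, 854 and 726 CPM in KO (log2 fold change -0.92, SE 0.2873, edgeR adjusted p = 0.114). Next came Rps27l (-0.40, SE 0.1566, edgeR adjusted p = 0.188) and Rpl4 (0.24, SE 0.0935, edgeR adjusted p = 0.192). Of 37 genes taken by their Nduf names, nearly all for nuclear subunits of complex I, Ndufa9 passed, at 174, 186 and 167 CPM in WT and 225, 231 and 223 CPM in KO (log2 fold change 0.36, SE 0.0838, edgeR adjusted p = 0.0488), in 1 of the 6 fits without a mouse as well. Ndufv1, which holds the NADH site, had a log2 fold change of 0.29 (SE 0.0840, edgeR adjusted p = 0.0923), Ndufs3 of 0.24 (SE 0.0839, edgeR adjusted p = 0.149) and Ndufb4 of -0.35 (SE 0.1298, edgeR adjusted p = 0.161). The median of the Nduf genes was 0.047, with 20 of 37 above 0. In 11 every KO mouse lay above every WT mouse (29.7%, against 12.6% of all genes), and in 3 below (8.11%, against 12.0%). For the members these shares were 20.8% and 11.7%. Ndufa4, whose protein belongs to complex IV, and Ndufa4l2, not a complex I subunit, are among the 37. None of these lists was compared with the members by a test of the difference.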

How the data were processed

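RNA-seq of 6 mouse muscles was used, 3 per genotype, grouped by the labels. Per the methods, the authors prepared stranded poly(A) libraries, mapped paired reads to mm10 with HISAT2 and deposited raw counts per gene, 1 column per mouse. The labels list Bowtie 0.12.2 and mm8 instead. The counting tool and strand setting are not given in the sources used here, and no read was reprocessed. The deposited gene length was used as an alternative length.

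Genes were kept by filterByExpr (minimum count 10, minimum total count 15). TMM-scaled counts were fitted in edgeR 4.0.16 (R 4.3.3) by glmQLFit and glmQLFTest, genotype being the sole factor, with Benjamini-Hochberg adjustment over 15075 genes, after a check on simulated counts. Alternatives were DESeq2 1.42.0, limma-voom (limma 3.58.1), other scalings and filters, and leaving out each mouse. An exact permutation test of 3 against 3 mice cannot go below p = 0.1, and p-values measure the spread between these mice. Common variation between mice was 12.1%, with libraries of 16176591 to 20123767 counts. No 2 libraries of a genotype agreed within sampling noise. Coordinates and transcript lengths are from GENCODE vM21 (GRCm38), where all 78 members were found. RefSeq gave promoters.

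Members and lists were chosen with earlier results of these data known. Named were the 8 members with the smallest p on each side, the 5 highest and lowest by level, untested members, Mrps18a, Mrps18b, Mrps18c, Mrps30, Mrps36 and Mrpl12, and in each list the calls and the 3 next smallest p-values. Mrps26, Mrps31, Lrpprc, mt-Nd1, Nrf1, Yy1, Ndufa4 and Ndufa4l2 were named after their values were seen.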

Additional observations from a re-analysis of the deposited data

How the results depend on the processing

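No member passed in the reported fit. Higher in KO, 2 members passed with DESeq2 and 2 without a filter beyond 1 count in any library, and 1 passed with limma-voom, with at least 10 counts in every library and with protein-coding genes alone; leaving out single mice gave 0 to 2, the 2 without mouse 584. Lower in KO, 2 (Mrpl44 and Mrps6) passed without the filter and 0 under every other setting. Over all genes, 342 calls became 671 with DESeq2, 1437 without the filter, and 81 to 625 without 1 mouse. With library totals, an alternative chosen after seeing the data, 9 members were apart on the higher side and 15 on the lower, against 16 and 9. The median log2 fold change without 1 mouse ran from -0.015 to 0.045 for all members, from -0.028 to 0.025 for the large subunit and from 0.050 to 0.094 for the small subunit; with upper quartile scaling it was -0.0051 for all members. Of 392 values for 28 named members over 14 settings, 379 kept direction and side of the threshold, 11 passed only in the alternative, and 2 changed sign, both without mouse 595: Mrps18a (0.014, the range over single mice left out being -0.093 to 0.014) and Mrps36 (0.064, range -0.099 to 0.064). The cause of these changes was not tested. No paired analysis was possible because no mouse number occurs in both genotypes. Each tested member had at least 160 counts in every library, and Mrpl53, at 0, could be assessed under no setting.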

Other observations

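Processed pseudogenes with Mrpl or Mrps names did not meet the rule, and 5 are listed. Mrpl23-ps1 had 133, 161 and 168 counts in WT and 128, 182 and 143 counts in KO, and Mrpl48-ps had 37, 51 and 34 counts in WT and 60, 50 and 44 counts in KO. Mrps36-ps1 had 22 to 43 counts, Mrps36-ps2 had 9 to 18 counts, and Mrps36-ps3 was listed at 0 in all libraries. How reads that match both Mrpl23, Mrpl48 or Mrps36 and a copy were assigned is not given in the sources used here, and the values of these 3 members are uncertain to that extent. Nme3, which shares 37.0% of the exon bases of Mrps34 on the same strand, was likewise listed at 0 in all 6 libraries, as Mrpl53 was beside Gm42688.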
